A study of Arabidopsis thaliana with 6 samples.

Results

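The loci described here are abundant transcripts of Arabidopsis seedlings for which no binding site of ECT2 was listed. They were chosen as loci of the 5 nuclear chromosomes with an input level of 30 FPKM or more in both input libraries and with no site listed for any of their transcripts in either FA-CLIP library. FPKM is the number of fragments scaled to transcript length and to the size of the library. The rule found 105 loci among 1977 nuclear loci that reached 30 FPKM in both inputs (5.31%), of 33275 nuclear loci and 33543 loci in all. Another 84 abundant loci had a site in 1 FA-CLIP library and 1788 had a site in both. The annotation matched the name mRNA for 89 of the 105 loci, which were protein-coding, among 1906 abundant protein-coding loci (4.67%). The other 16 were non-coding RNAs, tRNAs, pseudogenes and 1 locus with no entry in the annotation used. The loci were thus selected on input level and on absence from the FA-CLIP lists, so both are given below as a description and not as a result.

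FA-CLIP combines formaldehyde crosslinking, RNase T1 digestion and immunoprecipitation to find the RNA bound by a protein. The study used it on 14-day-old seedlings, with 2 libraries in each of 3 groups. The input group held unprecipitated RNA of plants labelled transgenic ECT2:ETC2-Flag/ect2, which carry a FLAG-tagged ECT2 in the ect2 T-DNA mutant SALK_002225. The FA-CLIP group held RNA that anti-FLAG M2 beads precipitated from plants of the same genotype, and the mock group held RNA that the same beads precipitated from wild-type plants. All plants had the Col-0 background, grew under long days at 22°C and were fixed with formaldehyde. The promoter of the transgene, the number of transgenic lines and the origin of the replicates were not given in the sources used here. Input libraries were made with an RNA library kit and precipitated RNA with a small RNA kit, so input and precipitate differ in kit as well.

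ECT2 belongs to the YTH-domain proteins, whose YTH domain holds an aromatic pocket that recognises N6-methyladenosine (m6A) in RNA. In plants m6A lies mostly in 3′ untranslated regions (UTRs) near the end of the transcript. ECT2 is a reader of m6A that is known for its part in leaf and trichome development. A sequence searched for around such sites is UGUA followed by C or U, and the methylated adenosine itself lies in a wider consensus named DRACH, in which A, G or U is followed by A or G, then by AC and then by A, C or U.

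The FA-CLIP libraries listed 41707 and 41471 sites, with 901178 and 830355 conversion events, and the mock libraries listed 3440 and 3848 sites with 489805 and 653262 events. No listed site had fewer than 2 events, so a locus without a site may still have had a single event, and the site caller's criteria were not given in the sources used here. How many input reads there were is unknown. A single locus, AT2G01021, held 33.4% of the summed FPKM in input 1 and 57.5% in input 2. The median log2 ratio of input 2 to input 1 was -0.09 over the 105 loci and -0.09 over all 1977 abundant loci. Of the marker genes used to check the tissue, the 6 leaf genes reached 1483 to 5560 FPKM with 103 to 3497 FA-CLIP events in a library. The 6 root genes lay between 13.3 and 578.4 FPKM, and 3 of them had no site, namely TIP2;2, CASP1 and RCI3, of which TIP2;2 is among the 105 loci. The seed storage genes CRU3 and CRA1 and the oleosin gene OLEO1 were at or near 0.

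UGUAC or UGUAU is present in many of these transcripts. The first such match in the 3′ UTR is shown for the most abundant of the loci that have one and that are described below by what they encode. Each line gives 30 bases of the transcript's strand, as DNA, from the RefSeq annotation of TAIR10.1, with the match in capitals. The match of LTP depends on a transcript model with a 3′ UTR of 2290 nt, beside a median of 262 nt over the 89 protein-coding loci. The windows lie at chr2:6519852-6519881 (+) for LTP, chr3:1285607-1285636 (-) for PR4, chr5:8500668-8500697 (-) for VSP2, chr4:9700280-9700309 (+) for TIP2;2 and chr2:2034008-2034037 (+) for AT2G05540.
LTP: gttatgttgaatTGTATgtggctgcagcgt
PR4: gaccgctatataTGTATtgtcgagggatat
VSP2: gcattgtcccctTGTATacacttcatatct
TIP2;2: cttgctttttgtTGTATgaaaatgtttggt
AT2G05540: gattcctcaggcTGTATaaagggaacaatt

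Loci without a site can be set beside their closest annotated relative that had one. The first line below is the middle of the strongest site that both FA-CLIP libraries shared in GR-RBP2, a glycine-rich RNA-binding protein of mitochondria, at chr4:8022165-8022194 (+). The second is the first UGUAC or UGUAU of AT4G13860, its neighbour without a site, at chr4:8023217-8023246 (+). The third is the middle of the strongest shared site of AT2G43090, which encodes a small subunit of isopropylmalate isomerase, at chr2:17920284-17920313 (+). The fourth is the first match of IPMI2, the next locus on that strand and another such subunit, at chr2:17921472-17921501 (+). The fifth is the middle of the strongest shared site of DHAR1, a dehydroascorbate reductase, at chr1:6773346-6773375 (-). It is the closest match of AT1G19550, which has no site and no annotated 3′ UTR and so no window to set beside it. The windows of GR-RBP2 and AT2G43090 hold neither form and have no capitals, while that of DHAR1 holds both forms.
GR-RBP2: gaaaactctttactctttttttggttacca
AT4G13860: acattcttgtaaTGTATtgtgtgctttcat
AT2G43090: tatatatgactatcggctttagtcttcagt
IPMI2: tgatggtgttctTGTATgcataactatttg
DHAR1: tttatgtaaTGTACTGTATcaatcaaataa
The site of GR-RBP2 carried 186 and 337 conversion events in the 2 FA-CLIP libraries, that of AT2G43090 carried 20 and 11, and that of DHAR1 carried 35 and 34. Input was 80.6 and 66.9 FPKM for AT1G19550 and 277.4 and 244.3 FPKM for DHAR1. AT1G19550 was repeated over 26.5% of its length. All 637 nt of it lay opposite exons of AT1G19540, which had 2.67 and 3.34 FPKM with 6 and 2 FA-CLIP events. The input level of AT1G19550 may therefore include reads of other loci. A match to these letters is a description of the sequence and not a binding site.

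Input levels of the most abundant protein-coding loci without a site are given first. PR4, a pathogenesis-related protein that binds chitin, had an input level of 204 FPKM in library 1 and 175 FPKM in library 2 (189.5 ± 19.99, mean ± SD, n = 2). VSP2, a vegetative storage protein induced by jasmonate, had 130.1 and 128.98 FPKM. AT2G05540, a glycine-rich protein, had 178.1 and 179.9 FPKM. These 3 loci exceeded 100 FPKM in both libraries and lay far above the threshold of 30. LTP, a lipid transfer protein, had 160 and 138 FPKM, and EARLI1, a proline-rich cell wall protein with a lipid transfer domain, had 106 and 105 FPKM.

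TIP2;2, a water channel of the vacuolar membrane, had 122.3 and 119.1 FPKM (121 ± 2.27). PORB, the light-dependent enzyme that reduces protochlorophyllide in chlorophyll synthesis, had 112 and 109 FPKM. MLP423, a protein of the major latex protein family, had 113 and 97.3 FPKM, and its family members MLP43 and MLP329 were also without a site, at 65.6 and 55.9 FPKM and at 56.0 and 54.4 FPKM. Long transcripts give more fragments at the same FPKM, and by FPKM multiplied by length in kilobases CYP81F4 and RAP2.4 joined the 10 highest. CYP81F4, a cytochrome P450 of indole glucosinolate modification, had 70.4 and 69.0 FPKM on a transcript of 1722 nt. RAP2.4, a transcription factor of the AP2/ERF family, had 62.4 and 62.3 FPKM on a transcript of 2136 nt.

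Several loci at the head of the list have no known function. AT1G51402 had 445 and 405 FPKM, the highest of all 105 loci. AT2G01023, of 120 nt, had 211 and 250 FPKM. AT1G67865 had 152 and 127 FPKM, AT5G66053 had 133 and 128 FPKM, AT1G24996 had 118 and 135 FPKM, and AT2G47115 had 102 and 94.2 FPKM. AT3G42628, annotated as related to phosphoenolpyruvate carboxylase, had 124 and 83.1 FPKM. Over all 105 loci the mean input level ran from 30.5 to 425 FPKM with a median of 51.8 FPKM, and the median of abundant loci with a site was 61.6 FPKM. Of the 105, 14 reached 100 FPKM in both libraries and 44 were under 50 FPKM in both.

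**Figure D1:**
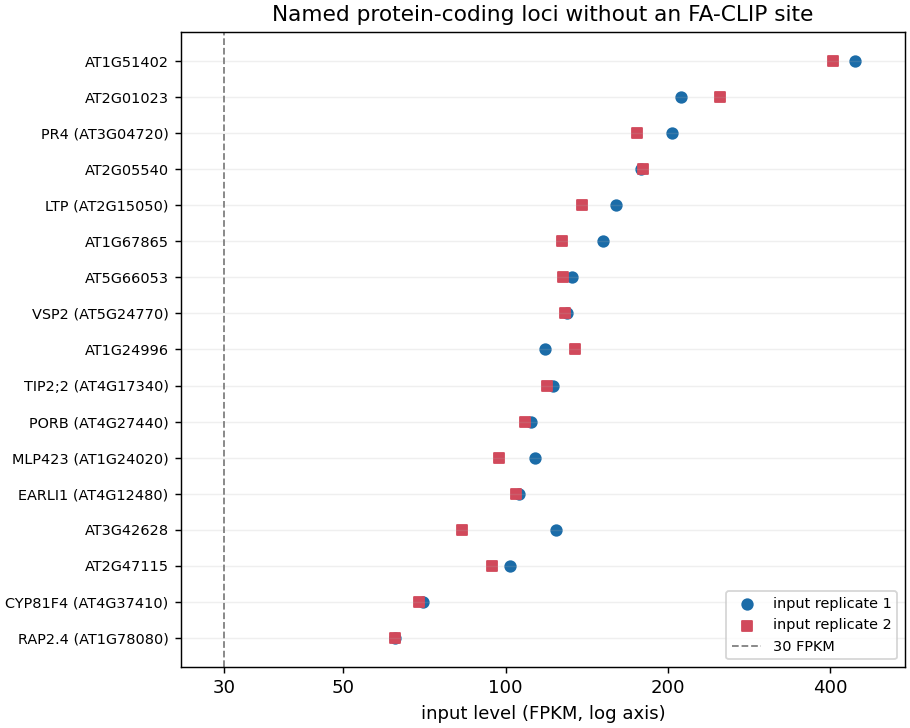
Input level in FPKM (log axis) of the named protein-coding loci without an FA-CLIP site. Circles are input replicate 1, squares are input replicate 2 and the dashed line is the threshold of 30 FPKM. The 2 replicates lie close together for most loci, with the widest gap at AT3G42628 (124 and 83.1 FPKM).

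Some of these input values cannot be given to 1 locus with certainty, because the strand of the input reads is not stated. Exons of 29 of the 105 loci shared bases with exons of another annotated locus. Among the protein-coding loci the share was 25.8% (23 of 89), and among abundant protein-coding loci with a site it was 28.5% (517 of 1817). For 5 of the 29 the other locus was itself abundant. AT1G51402 shared 308 of its 501 nt with AT1G51400 on the opposite strand, which encodes a 5 kD protein of photosystem II and had 147 and 134 FPKM with 94 and 64 FA-CLIP events. PORB shared 71 nt with AT4G27450 on the opposite strand, at 61.6 and 56.3 FPKM with 66 and 58 events. IAGLU, which attaches glucose to the auxin indole-3-acetic acid, had 34.9 and 33.9 FPKM and shared 210 nt with AT4G15545, at 100.9 and 108.6 FPKM with 209 and 188 events. All 147 nt of AT5G66053 lay opposite exons of AT5G66052. That locus was below the threshold, at 24.2 and 23.0 FPKM with 10 and 0 events.

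Repeated and short sequences were also found among the loci without a site. In 13 of the 89 protein-coding loci (14.6%), at least 10% of the 30-base stretches of the transcript occurred again in the genome, as against 114 loci with a site (6.27%). AT1G24996 was repeated over 93.6% of its length, AT3G42628 over 61.5% and AT2G01023 over 51.6%. Transcripts under 200 nt made up 8 of the 89 and 3 of the 1817 protein-coding loci with a site. The part of repeats and length in the absence of sites was not tested. For bZIP2, a basic leucine zipper transcription factor at 77.8 and 69.7 FPKM, the bases of the locus did hold a site with 6 and 4 events, listed for another locus, AT2G18162. Of the other 103 loci with annotated coordinates, none held a site of another locus on the same strand.

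Among the 16 loci that are not protein-coding, AT3G22121, a long non-coding RNA, had 299 and 310 FPKM. All 1371 nt of it lay opposite exons of CWLP, which encodes a linker protein of cell wall and plasma membrane and had 156 and 163 FPKM with 15 and 16 FA-CLIP events. The reads of these 2 loci cannot be told apart without strand. AT2G23672, another long non-coding RNA, had 139 and 132 FPKM and shared 709 of its 1014 nt with the opposite strand of YCF37, at 2.13 and 1.75 FPKM with 10 and 11 events. In that pair the annotated coding locus was near 0 in input and yet had events. GUT15, a non-coding RNA named for its unstable transcript, had 89.6 and 94.8 FPKM on 1378 nt without a shared exon.

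The small RNAs were a snoRNA, AT1G03502, at 104 and 76.7 FPKM, 2 tRNA genes for proline with identical values of 90.9 and 83.5 FPKM, 1 tRNA gene for tyrosine, and MIR827. The 2 proline tRNA genes, the tyrosine tRNA gene and the snoRNA were each repeated over 100% of their length. Their reads therefore cannot be told apart from those of other copies. MIR827, the precursor of a microRNA of phosphate homeostasis, had 84.9 and 62.4 FPKM. By class, 6 of 8 abundant long non-coding RNAs, 2 of 16 other non-coding RNAs, 3 of 8 tRNAs and 1 of 25 snoRNAs were without a site. The share over all abundant loci was 5.31%. Each of the 6 long non-coding RNAs shared exon bases with a locus on the opposite strand, AT5G42092 over all of its 1891 nt. Their input levels may therefore include reads of that other locus. Both transcribed pseudogenes among the abundant loci were without one, AT4G04692 and AT1G79245.

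The share of loci without a site was highest at the lowest input FPKM times transcript length and lowest at the highest. Loci were put in 10 bins of near-equal size by input FPKM multiplied by transcript length. In the lowest bin 27 of 191 protein-coding loci were without a site (14.1%, 95% Wilson interval 9.90 to 19.8%; 7.33% where bins were ranked by FPKM alone), and in the highest 1 of 190 (0.526%, 0.0930 to 2.92%). The 8 bins between ran from 2.11% to 5.76%. The median locus of the lowest bin carried 35 and 48 FA-CLIP events and that of the highest 320.5 and 297. The locus without a site in the highest bin was LTP, whose transcript model of 2801 nt has a 3′ UTR of 2290 nt around a coding sequence of 372 nt. PR4, AT1G51402, VSP2 and PORB lay in the ninth bin, where the median locus carried 180 and 231 events.

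**Figure D2:**
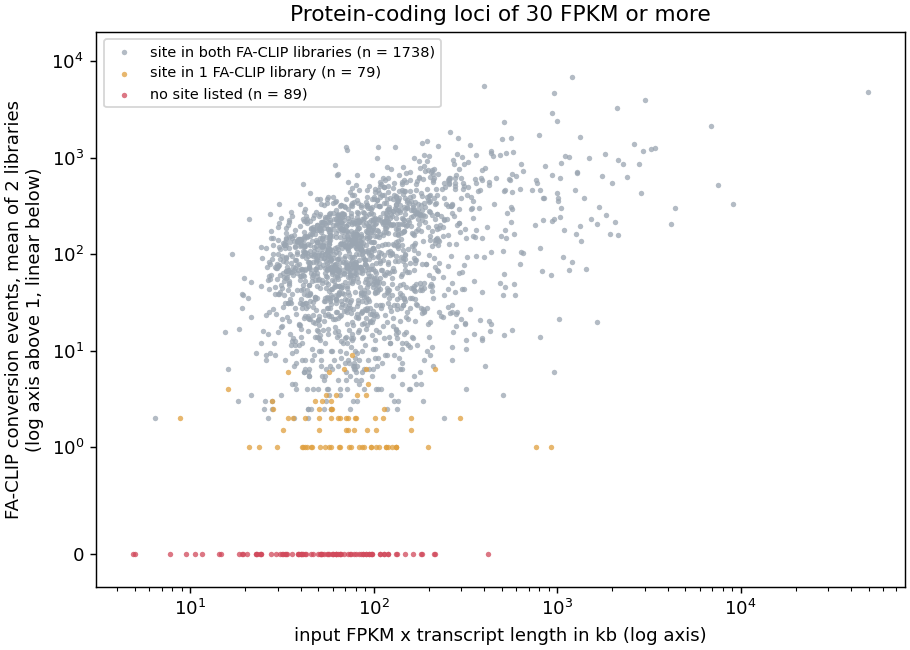
FA-CLIP conversion events (mean of 2 libraries, log axis above 1 and linear below) against input FPKM times transcript length in kilobases (log axis) for protein-coding loci of 30 FPKM or more. Loci without a site (n = 89) lie on the line at 0 and run up to 418 for LTP, whereas loci with a site reach 49413. Loci with a site in 1 library (n = 79) and in both (n = 1738) are shown separately.

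**Figure D3:**
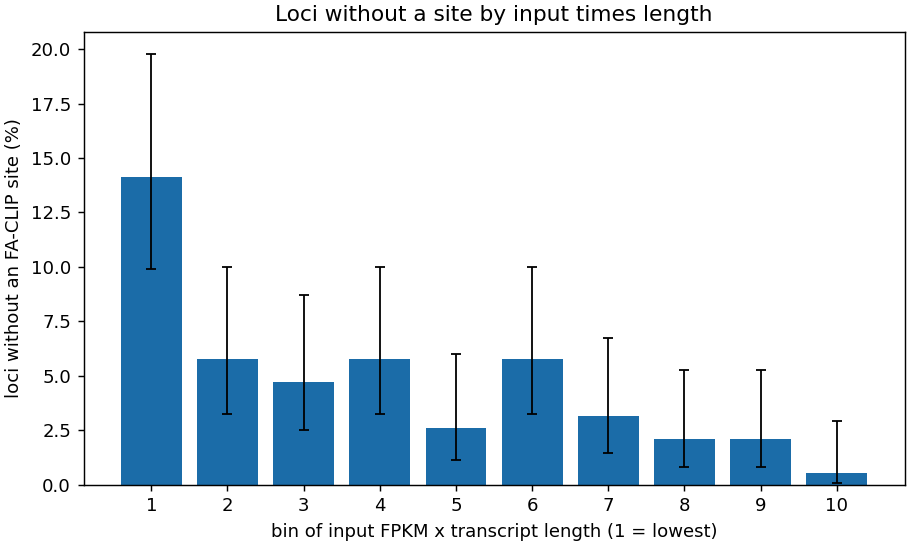
Share of abundant protein-coding loci without an FA-CLIP site in 10 bins of input FPKM times transcript length, from lowest to highest, with 95% Wilson intervals as bars. The lowest bin stands at 14.1% and the highest at 0.526%.

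Loci without a site had fewer exons and shorter coding sequences in the median than loci with sites in both libraries. Of the 89 protein-coding loci, 44 had 1 exon (49.4%, interval 39.3 to 59.6%), as did 36 of the 79 loci with a site in 1 library (45.6%) and 184 of the 1738 loci with a site in both (10.6%, 9.23 to 12.1%). The median number of exons was 2, 2 and 4. The median coding sequence was 498, 606 and 718.5 nt, and the median transcript 1035, 1194 and 1241.5 nt. The median 3′ UTR was 262, 312 and 296 nt, and 12 of the 89 loci had no annotated 3′ UTR (13.5%), as against 19 of the 1817 with a site (1.05%). GC content of the transcript was 41.0%, 40.9% and 41.8% in the median. Within the 10 bins the share with 1 exon was higher without a site than with one in 9, and 19 of the 44 loci lay in the lowest bin. In the ninth bin it was 0 of 4 without a site beside 16.1% with one. Loci of 1 family share sequence and origin, so the intervals cover counting error only and loci are not replicates.

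A second feature was the start of the protein. A hydrophobic window was defined as 12 residues of mean Kyte-Doolittle hydropathy of 2 or more within the first 30 residues of the annotated protein. Secreted and membrane proteins often begin with such a stretch, but the measure is not a call of a signal peptide. It was present in 42 of the 89 loci without a site (47.2%, 37.2 to 57.5%), in 36 of the 79 with a site in 1 library (45.6%, 35.0 to 56.5%) and in 226 of the 1738 with a site in both (13.0%, 11.5 to 14.7%). The annotation notes name the endomembrane system for 23 of 83 loci without a site that have a note (27.7%), for 19 of 75 (25.3%) and for 86 of 1627 (5.29%). Loci with a site in 1 library thus stood close to loci without a site in both features.

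The 2 features were counted together over all 1906 abundant protein-coding loci. Of 75 loci with 1 exon and a hydrophobic window, 18 were without a site (24%, 15.8 to 34.8%). Of 189 loci with 1 exon and no window, 26 were without a site (13.8%, 9.56 to 19.4%). Of 229 loci with more exons and a window, 24 were without a site (10.5%, 7.14 to 15.1%). Of 1413 loci with neither feature, 21 were without a site (1.49%, 0.974 to 2.26%). Among loci of these groups that did have a site, the median number of events was 12, 27.5, 35 and 122. Their median of FPKM times length differed less, at 78.4, 72.4, 79.8 and 85.9. In the 10 bins, the share with a hydrophobic window was higher among loci without a site than among those with one in each bin, although 1 to 27 loci per bin had no site.

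**Figure D4:**
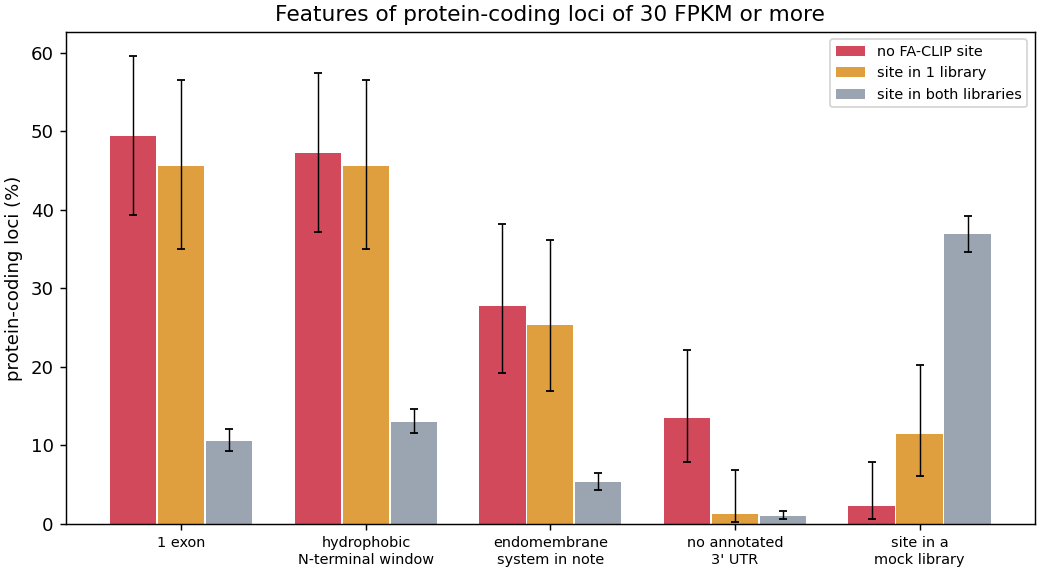
Share of abundant protein-coding loci with 1 exon, a hydrophobic N-terminal window, an endomembrane note, no annotated 3′ UTR or a site in a mock library, for loci with no FA-CLIP site, with a site in 1 library and with a site in both. Bars on the columns are 95% Wilson intervals. In the first 3 features the loci with no site and with a site in 1 library stand together (49.4% and 45.6% for 1 exon), above loci with a site in both (10.6%).

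By annotated function, lipid transfer proteins were the list with the highest share of loci without a site at the threshold of 30 FPKM. These are small secreted proteins with a cysteine-rich fold that holds lipids, and 12 of 23 abundant ones had no site (52.2%) beside 4.67% over all abundant protein-coding loci. The 12 were LTP, EARLI1, LTP6 (65.8 and 63.0 FPKM), AT4G22517 (69.4 and 66.8 FPKM), AT5G01870, AT3G53980, AT4G22505, AT5G05960, AT3G18280, AT2G18370, AT4G22485 and AT4G22513. Another 4 had a site in 1 library, all in replicate 1 and with 2 to 4 events: DIR1, AT4G00165, AT4G22490 and AT5G48490. The other 7 had sites in both libraries. LP1 had 1054 and 887 FPKM with 17 and 11 events, and AT2G10940 had 236 and 238 FPKM with 114 and 74 events, the most in the list in library 1. LTPG2 had 42.7 and 38.7 FPKM with 50 and 87 events, the most in library 2. AT4G22485, AT4G22505, AT4G22513 and AT4G22517 lie near each other and repeat 8.56% to 23.3% of their 30-base stretches, so reads may be split among them.

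Small defence peptides, peroxidases and cell wall proteins gave further members, beside a share of 4.67% over all abundant protein-coding loci. Among defensins, thionins and knottins 3 of 7 had no site (42.9%): AT2G43535 at 93.97 and 84.8 FPKM, AT2G43550 and PDF2.5. AT1G25275, of the same list, had 168 and 163 FPKM with 65 and 65 events. The count of 3 was also 3 at a threshold of 20 FPKM. It was 1 at 50 FPKM and 4 with either FA-CLIP library left out. Among peroxidases 3 of 16 had no site (18.8%): AT2G37130 at 53.4 and 50.3 FPKM, AT2G38380 and AT4G30170, all of the secreted class. The ascorbate peroxidase APX1, a cytosolic enzyme of hydrogen peroxide removal, had 347.9 and 325.1 FPKM with 725 and 502 events. The count of 3 peroxidases was 6 at a threshold of 20 FPKM and 1 at 50 FPKM. It was 4 with either FA-CLIP library left out. Among glycine-rich proteins 2 of 14 had no site, AT2G05540 and GRP5 (50.3 and 51.2 FPKM). Arabinogalactan proteins gave 1 of 11 (AGP2), extensins and proline-rich proteins 1 of 19 (AT4G38080), aquaporins 1 of 14 (TIP2;2), late embryogenesis proteins 1 of 7 (LEA14) and glutathione transferases 1 of 15 (AT1G19550). With a single locus in each, these counts do not set the lists apart from the share of 4.67%.

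The list of transcription factors and other DNA-binding proteins gave 3 of 29 (10.3%, beside 4.67% of all abundant protein-coding loci), namely bZIP2, MYB28 and AT1G26920. It was drawn by words of the annotation and is not complete. RAP2.4, whose product is given as an uncharacterized protein, is not in it. That count of 3 was 8 with FA-CLIP replicate 1 left out, 6 at a threshold of 20 FPKM and 1 at 50 FPKM. AT1G51200 had the most events of that list, 763 and 603 at 182 and 150 FPKM. Cytochromes P450 gave 2 of 9, CYP81F4 and CYP71B26. Kinases gave 1 of 30 (PPCK1, 3.33%) and histones 1 of 14 (AT1G09200, 7.14%), on either side of the share of 4.67%. Loci whose product or note calls the protein unknown, uncharacterized or hypothetical gave 26 of 183 (14.2%). RAP2.4 and AT1G26920 are among them, so these words do not always mean that no function is known. At the other end, 0 of 203 ribosomal proteins, 0 of 42 translation factors, 0 of 41 photosystem proteins, 0 of 40 proteins of the mitochondrial respiratory chain and 0 of 23 light-harvesting proteins were without a site. The lists for tubulin and actin (19), heat shock proteins (9), proteasome (8), metallothioneins (6), germins (3), jacalin and myrosinase proteins (3), xyloglucan endotransglucosylases (3) and expansins (1) also held no locus without a site. At a share of 4.67%, lists this small, and that of 23 light-harvesting proteins, may hold none through their size alone. In the median, ribosomal proteins carried 215 and 299 events.

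**Figure D5:**
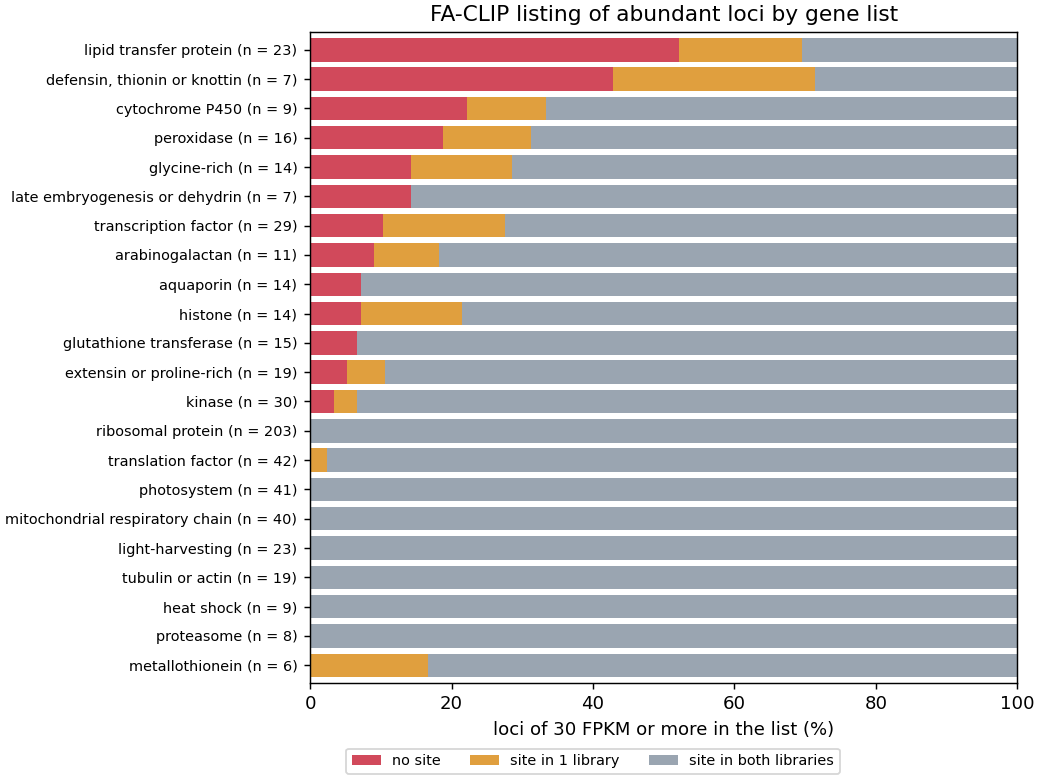
Share of abundant protein-coding loci with no FA-CLIP site, a site in 1 library or a site in both, for gene lists with 5 or more abundant loci (n beside each name), without the list of unknown proteins. Lipid transfer proteins are at the top with 52.2% without a site, and ribosomal proteins have none among 203.

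Aliphatic glucosinolate synthesis makes methionine-derived defence compounds of the cabbage family, and 4 of its 16 abundant loci had no site, beside 4.67% of all abundant protein-coding loci. The list was put together after the loci without a site had been seen. Its share is therefore a description and cannot be weighed against that of all loci. MYB28, the transcription factor that activates the pathway, had 34.2 and 35.1 FPKM. IPMI2, of the chain elongation of methionine, had 77.6 and 68.4 FPKM. BAT5, which carries the elongated keto acids across the chloroplast envelope, had 30.4 and 31.4 FPKM, and SOT18, the sulfotransferase of the last core step, had 39.4 and 42.5 FPKM. Enzymes of the same steps had sites: IIL1, the large subunit of the isomerase, had 78.6 and 78.7 FPKM with 79 and 163 events, and BCAT4 had 95.5 and 89.5 FPKM with 31 and 28 events. In all, 11 of the 16 had a site in both libraries and 1 had a site in 1 library.

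Of 8 abundant loci in a list of phosphate starvation genes, put together in the same way, 4 had no site. For the same reason this share cannot be weighed against the 5.31% of all abundant loci. SPX1, an inhibitor of the phosphate starvation response that senses inositol pyrophosphates, had 81.8 and 75.5 FPKM. PPCK1, a kinase that phosphorylates phosphoenolpyruvate carboxylase, had 55.1 and 50.2 FPKM, and AT5G20790, of unknown function, had 61.3 and 55.0 FPKM. MIR827 was the fourth. SQD1 and SQD2, which make the sulfolipid that replaces phospholipids, had 74.4 and 70.9 FPKM and 46.8 and 48.6 FPKM, with 17 and 24 events and 29 and 50 events. AT5G03545 had 211.8 and 172.2 FPKM with 6 and 6 events.

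Loci without a site were set beside their closest relatives. The annotation names a closest Arabidopsis match for 66 of the 89 protein-coding loci, and 29 of these matches were abundant as well. In 12 of the 29 cases the match had a site in both libraries, in 5 it had a site in 1 library, and in 12 it had none (41.4%), beside 4.67% of all abundant protein-coding loci. These 12 cases include both directions of 5 pairs of loci that name each other. The 41.4% thus counts some loci more than once and is not comparable with the 4.67% of single loci. AT4G13860 had 47.1 and 48.6 FPKM and no site, while GR-RBP2 had 76.4 and 70.2 FPKM with 193 and 355 events. IPMI2 and AT2G43090 had like input, 77.6 and 68.4 FPKM against 77.1 and 72.2 FPKM, and AT2G43090 had 57 and 116 events. RCI2B, a small membrane protein induced by cold, had 52.5 and 39.4 FPKM and no site, and RCI2A had 148 and 134 FPKM with 22 and 30 events. In these 3 pairs the locus with a site was the more abundant or about equal.

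PR4 was more abundant than its match HCHIB, a basic chitinase, which had 59.9 and 53.6 FPKM with 5 and 9 events. EBF1, an F-box protein that marks the ethylene regulator EIN3 for degradation, had 32.9 and 31.3 FPKM, and its match EBF2 was slightly higher, at 34.8 and 34.4 FPKM with 4 and 0 events. The β-glucosidases BGLU21 (60.6 and 54.7 FPKM) and BGLU22 (33.7 and 32.3 FPKM) were each other's match and both without a site, with 13.02% and 12.04% of their 30-base stretches repeated. The same held for LTP6 and AT5G01870 and for AT3G53980 and AT5G05960, all lipid transfer proteins.

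The motifs with UGUA and the DRACH consensus were present in at least as large a share of loci without a site as of loci with one. Motifs were searched on the transcript's own strand, in 3′ UTRs of 30 nt or more, of which 75 belonged to loci without a site and 1794 to loci with one. UGUAC or UGUAU was present in 57 of 75 (76.0%) and in 1218 of 1794 (67.9%), or 4.501 and 3.71 matches per kilobase. UGUAA was present in 64.0% and 55.9%. The wider form that also allows UAUAC and UAUAU, which contains the first motif, was present in 94.7% and 85.1%. A match to DRACH was present in 98.7% and 97.7%, at 16.7 and 16.7 matches per kilobase, and a run of UUUUU was present in 73.3% and 77.3%, at 11.8 and 9.51 matches per kilobase. By 3′ UTR length, UGUAC or UGUAU was present in 69.2% and 61.9% under 200 nt, 68.3% and 62.6% from 200 to 349 nt, and 95.2% and 80.1% in longer ones. In those longer ones UUUUU was present in 90.5% and 89.1%, so the order of its shares differed with length. Matches to DRACH per kilobase were 16.8 and 16.0 under 200 nt and 14.4 and 16.3 from 200 to 349 nt. In longer ones they were 18.8 and 17.2, so the like density over all 3′ UTRs did not hold at each length. The median U content of the 3′ UTR was 36.5% in loci without a site and 38.4% in loci with one. Whether the adenosines of these motifs were methylated was not measured here.

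The mock libraries were not used to choose the loci. A mock site was listed for 3 of the 105 loci (2.86%, 0.976 to 8.07%), beside 35.1% of all 1977 abundant loci and 691 of the 1872 with an FA-CLIP site (36.9%, 34.8 to 39.1%). All 3 had it in mock replicate 2 only: TIP2;2 with 2 events, LEA14 with 3 and MIR827 with 32. In mock replicate 1 the count was 0 of 105, for which the interval reaches 3.53%, and 475 of 1872 (25.4%). A site in both mock libraries was listed for 0 of 105 loci, beside 17.2% of all abundant loci. Among protein-coding loci the share with a mock site was 2.25% without an FA-CLIP site, 11.4% with a site in 1 library and 36.9% with a site in both. The loci poorly listed in FA-CLIP were thus also seldom listed in precipitates of plants without the tagged protein. No test of this difference was made, since loci are not replicates.

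The limits of the rule passed between loci of similar values. Just inside were AT1G09200, a histone, at 32.8 and 30.03 FPKM, APR1, an enzyme of sulfate assimilation, at 30.1 and 31.03 FPKM, and AT1G78830, a lectin, at 30.9 and 30.2 FPKM. Just outside were AT3G54580 at 29.98 and 35.8 FPKM, AT2G07684 at 29.9 and 32.7 FPKM and AT4G31355 at 29.7 and 31.4 FPKM, all without a site. On the side of the sites, 34 protein-coding loci had 2 events in 1 library and none in the other. The most abundant of these were the metallothionein MT1B, at 1361 and 1134 FPKM with 0 and 2 events, the extensin EXT3, at 433 and 489 FPKM with 0 and 2 events, and AT5G62350, at 158 and 163 FPKM with 0 and 2 events. Of the 79 protein-coding loci with a site in 1 library, 41 had it in replicate 1 and 38 in replicate 2.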

How the data were processed

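The authors made 6 libraries from 14-day-old seedlings. The submitters' processing notes name cutadapt, Bowtie and the TAIR10 build, without versions. Which programs called sites and counted reads was not given in the sources used here. Input tables as deposited hold 1 value per locus, taken to be FPKM from the headers' layout and the values. The deposited FA-CLIP and mock lists give counts of conversion events per site and transcript, per the file headers, not scaled to depth.

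A locus had a site if any of its transcripts had 1 listed, and a site of several transcripts was counted once. Coordinates and gene models came from RefSeq TAIR10.1, whose nuclear sequence was set beside the deposited TAIR10 sites: 0 sites lay past a chromosome end and 93.2% of 53446 sites labelled 3′ UTR had their midpoint in the RefSeq 3′ UTR. Each locus is described by the transcript with the longest coding sequence. The annotation matched 1971 of 1977 abundant loci. Whether deposited site coordinates count from 0 or 1 is not stated, so printed windows around sites may be off by 1 base. Proteins were translated from the reference for the hydropathy window.

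Loci, lists and features were chosen with earlier results of these data known. Named are the 15 protein-coding loci of highest input, the 10 of highest input times length, loci at the limits of the rule, in each list with 3 or more members the top member and the locus with the most events, and the 5 non-coding loci of highest input. Other named loci, among them the pathway lists, closest matches, overlapping pairs and list members, were chosen after their values were seen. So were the endomembrane notes, the repeat search and the joint count of exons and window. The lists use words of the product or note. The words for thionins and histones were narrowed after the first matches were seen, and the ribosomal list takes in plastid proteins. A check of expression breadth from the notes is void, because 46 of 89 protein-coding loci have a value.

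No test was run, since the rule used the 2 main measurements and loci are not replicates. Intervals are 95% Wilson intervals. The scripts ran under Python 3.11.15 with scipy 1.17.1, numpy 2.4.6 and matplotlib 3.10.9. The selection rule, motif search and hydropathy window were tested on simulated data with planted answers.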

Additional observations from a re-analysis of the deposited data

How the results depend on the processing

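The 105 loci became 195 at a threshold of 20 FPKM, 51 at 50 FPKM and 159 where a site needed 3 or more events, and ran from 123 to 150 with 1 input or FA-CLIP library left out. They were 103 with inputs rescaled without the top locus, 104 with sites of other loci on the strand counted, 86 without repeated loci, 91 without transcripts under 200 nt and 76 without loci that share exon bases with another. The last 3 settings were added after seeing the data. The median transcript of 1035 nt was 1117 to 1120.5 nt with 1 FA-CLIP library left out, 1134 nt over transcripts of 200 nt or more and 1010 nt by first transcripts, against 1241.5 nt for loci with a site in both libraries. The median coding sequence of 498 nt was 510 to 522 nt and 525 nt under the first 2 of these, against 718.5 nt. The median 3′ UTR of 262 nt was 273.5 to 274 nt and 268 nt, 266 nt by longest and 265 nt by first transcripts. Ranked by FPKM alone, the lowest of 10 bins held 7.33% without a site in place of 14.1%. Mock sites were listed for 0 loci in both mock libraries, and for 0 to 3 with 1 mock library left out. At 50 FPKM, 4 lipid transfer proteins were counted in place of 12, and 12 to 16 with 1 FA-CLIP library left out. The list of abundant ones is also shorter at 50 FPKM, so their share of 52.2% holds for 30 FPKM only. Over whole transcripts UGUAC or UGUAU was present in 88.0% in place of 76.0% of 3′ UTRs, and in 87.2% of loci with a site. The hydrophobic window was found in 37.1% with 16 residues in place of 47.2% with 12, and in 40.3% without lipid transfer proteins. The cause of these moves was not tested. No paired analysis was possible because no result comes from a test. Absence of a site is not absence of binding at this depth, since the reads behind the input and the caller's threshold are unknown.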

Other observations

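Some further loci without a site are named here after their values were seen. AT2G21210, of the auxin-responsive SAUR family, had 81.8 and 72.1 FPKM in input. RHA2A, a RING-finger ubiquitin ligase of abscisic acid signalling, had 36.1 and 34.1 FPKM. AT1G17860, a Kunitz-type protease inhibitor, had 68.2 and 56.0 FPKM, and its closest match KTI1 had 89.1 and 75.1 FPKM with 2 and 0 FA-CLIP events.

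The neighbouring lectin genes AT1G78850 and AT1G78830 had 59.6 and 53.5 FPKM and 30.9 and 30.2 FPKM. The glycosyl hydrolase AT4G16260 had 84.5 and 81.1 FPKM. These loci too were chosen after their values were seen. BGLU21 and BGLU22 had no site, whereas PYK10, a β-glucosidase of root endoplasmic reticulum bodies used as a root marker, had 578 and 560 FPKM in input, 18 and 25 events in FA-CLIP and 3 in each mock library.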
